A study of Mus musculus with 15 samples.

Results

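The 10 genes described here are those of de novo fatty acid synthesis in the liver: Srebf1, which encodes the transcription factor SREBP1, and 9 genes of fatty acid synthesis or lipid handling that are known to respond to it, namely Fasn, Acaca, Acacb, Acly, Scd1, Elovl6, Me1, Thrsp and Pnpla3. They were chosen by name, and all 10 were found in the deposited count table of 37991 gene identifiers and passed the filter on low counts, as did 14258 genes in all. RNA sequencing was done on the livers of female C57BL/6 mice kept on chow, with 1 animal in each library and 5 in each group. The groups were young WT at 90 days, old WT at 600 days, and old S6K1 KO at 600 days, the last with loss of Rps6kb1 (ribosomal protein S6 kinase 1) throughout the body. There was no young S6K1 KO group, so genotype was compared at 600 days alone, and old S6K1 KO and young WT mice differed in both age and genotype. Feeding was ad libitum, and the hour and feeding state at which livers were taken are not given in the sources used here.

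SREBP1 is made as a membrane-bound precursor in the endoplasmic reticulum, where INSIG proteins hold it back, and it is cut in the Golgi to release the part that enters the nucleus. In hepatocytes insulin and the oxysterol receptor LXR raise Srebf1 transcription, and nuclear SREBP1 then raises the genes that turn citrate into fatty acids: Acly makes cytosolic acetyl-CoA, the acetyl-CoA carboxylases Acaca and Acacb make malonyl-CoA, Fasn builds palmitate, and Elovl6 and Scd1 elongate and desaturate it. S6K1 acts in the insulin and nutrient pathway of mTORC1, which is known to raise SREBP1 activity, so these genes bear on the question of how age and loss of S6K1 alter liver metabolism. A transcript level says nothing of the cleavage of SREBP1 itself. On the mm9 assembly used for the counts, Srebf1 (ENSMUSG00000020538) lies on the minus strand at chr11:60012591-60036083, Fasn (ENSMUSG00000025153) on the minus strand at chr11:120667254-120685492, Scd1 (ENSMUSG00000037071) on the minus strand at chr19:44468941-44482199 and Acacb (ENSMUSG00000042010) on the plus strand at chr5:114596544-114700770, all protein-coding genes of GENCODE M1.

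The promoter windows are shown because SREBP1 and LXR act on these genes through short DNA elements. RefSeq windows of the 250 bases before a transcription start were found for 9 of the 10 genes, all but Scd1, 12 windows in all (GRCm38.p6). Which start is used in liver was not tested, and a window may lie within a gene, away from its main promoter. A missing match therefore describes the window alone. Srebf1, Fasn and Pnpla3 are printed 5′ to 3′ on the gene's strand, with capitals for 2 elements: the core of the sterol regulatory element (TCACCC) and the first part of the LXR element known from the Srebf1 promoter (GGTTACT, here on the other strand, where it reads AGTAACC).
Srebf1 (chr11:60210472-60210721, minus strand, the innermost of its 3 starts): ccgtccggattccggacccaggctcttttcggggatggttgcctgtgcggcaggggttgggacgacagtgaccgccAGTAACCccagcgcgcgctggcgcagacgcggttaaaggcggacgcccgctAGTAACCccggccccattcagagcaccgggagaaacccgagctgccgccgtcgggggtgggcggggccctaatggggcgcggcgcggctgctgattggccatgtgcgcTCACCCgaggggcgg
Fasn (chr11:120824548-120824797, minus strand): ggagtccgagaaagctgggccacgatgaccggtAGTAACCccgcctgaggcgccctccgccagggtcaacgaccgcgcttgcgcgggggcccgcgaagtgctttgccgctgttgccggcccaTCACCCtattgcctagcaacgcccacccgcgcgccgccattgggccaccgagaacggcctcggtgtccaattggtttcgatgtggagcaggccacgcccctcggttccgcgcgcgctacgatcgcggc
Pnpla3 (chr15:84167566-84167815, plus strand): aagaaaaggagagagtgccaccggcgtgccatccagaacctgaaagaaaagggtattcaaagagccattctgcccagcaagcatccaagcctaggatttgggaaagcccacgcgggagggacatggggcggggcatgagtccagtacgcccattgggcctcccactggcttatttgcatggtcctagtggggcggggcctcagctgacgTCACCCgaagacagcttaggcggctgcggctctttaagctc
The core TCACCC stood in a window of 4 of the 9 genes, Srebf1, Fasn, Me1 and Pnpla3. By window it stood in 4 of the 12, and in 13.8% of all 32851 windows of that length, both strands searched. Its first base lay 15 bases before the start of Srebf1, 128 before that of Fasn, 102 before that of Me1 and 41 before that of Pnpla3. The LXR letters stood at 174 and 123 bases before the start of Srebf1 and 217 before that of Fasn. They were in none of the windows of the other 7 genes, so in 2 of the 12 windows, and in 1.88% of all windows. They were chosen after the windows had been read, so their presence in Srebf1 and Fasn is a description. The longer sterol regulatory element TCACNCCAC, which contains the core where its N is C, and the E-box CACGTG matched in none of the 12 windows, against 1.05% and 6.02% of all windows. CCAAT matched in windows of 6 genes (7 of the 12 windows, against 33.8% of all windows). The GC box GGGCGG matched in windows of 4 genes (5 of the 12 windows, against 32.7%).

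The libraries held between 21801754 and 38065359 counts. Rps6kb1 read between 15.2 and 20.8 CPM (a gene's reads relative to the TMM-scaled total of its library) in old S6K1 KO livers and between 33.3 and 45.3 CPM in the 10 WT livers, a fall of 1.17 on the log2 scale against old WT (SE 0.098, edgeR adjusted p = 8.5e-06). The 10 hepatocyte markers summed to between 96155 and 158991 CPM, the bulk of the marker signal in each library, and 3 of them (Cps1, Apoa1 and Hpd) fell in old against young WT. Of 12 endothelial, stellate and bile duct markers, Stab2 and Reln fell with age. In old against young WT, 8.91% of all genes tested fell. Of 10 adipocyte markers, the defining genes Adipoq, Lep, Plin1, Cfd, Retn and Adig were at or near 0 (at most 0.268 CPM), while Lipe, Fabp4 and Pparg, which liver cells also express, carried nearly all of the summed 24.2 to 37.6 CPM. Of 10 macrophage markers, 4 fell in old S6K1 KO against old WT, where 0.533% of all genes were called, and all 10 had fitted values below 0. In old against young WT 1 of them rose, where 9.92% of all genes rose. In old S6K1 KO against young WT 4 of them fell, where 11.3% of all genes fell. Their summed level ranged from 180 to 412 CPM in the young WT livers, from 234 to 584 in the old WT livers and from 143 to 216 in the knockout livers. In bulk liver, fewer cells of a type and less RNA per cell cannot be told apart, and the part of macrophage RNA in the results on lipogenic genes was not tested.

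**Figure D1:**
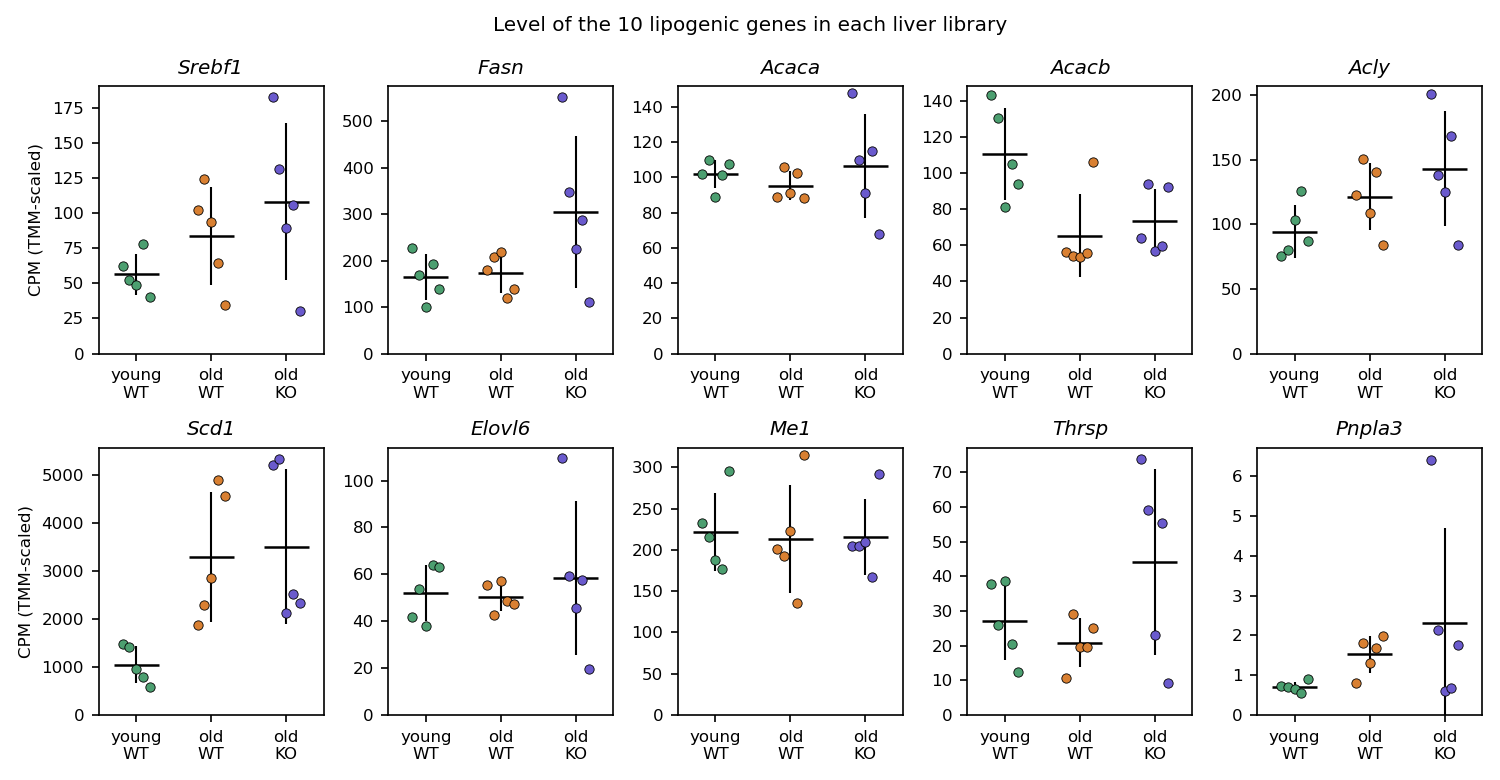
Level of each of the 10 genes in CPM (vertical axis, linear from 0) in the 5 libraries of each group (points), with the group mean (horizontal line) and SD (vertical line, cut at 0). Scd1 stood between 578 and 1470.5 CPM in young WT and at or above 1873 in all 10 old livers, whereas the spread of Srebf1, Fasn, Elovl6 and Thrsp was widest in old S6K1 KO.

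In young WT livers the 10 genes spanned a wide range of level per kilobase of exon. Scd1, the stearoyl-CoA desaturase that makes oleate, led with 216 ± 80.6 CPM per kb (SD, n = 5), followed by Me1, a cytosolic malic enzyme that yields NADPH, at 62.0 ± 13.1. Thrsp (21.2 ± 8.83), Acly (17.8 ± 3.87) and Fasn (16.8 ± 5.0) came next and did not differ beyond their spread. Acacb (11.5 ± 2.66), Srebf1 (10.04 ± 2.57), Acaca (10.01 ± 0.796) and Elovl6 (8.75 ± 2.01) were likewise within each other's spread. Pnpla3, which encodes a lipid-droplet acylhydrolase, was far below at 0.152 ± 0.0286 CPM per kb, and its lowest library held 14 counts, so its values carry the largest counting error of the 10. In old WT livers Scd1 stood at 681 ± 280 CPM per kb and Me1 at 59.7 ± 18.3, and in old S6K1 KO livers at 724 ± 335 and 60.3 ± 12.9, so both kept the first and second place. Acacb was the lowest after Pnpla3 in both old groups, at 6.78 ± 2.39 in old WT and 7.62 ± 1.89 CPM per kb in old S6K1 KO.

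Between old and young WT livers, 2 of the 10 genes passed an adjusted p of 0.05 in edgeR's quasi-likelihood test, against 18.8% of all genes tested: Scd1 rose, as did 9.92% of all genes, and Acacb fell, as did 8.91%. DESeq2 and limma voom called the same 2 genes (18.3% and 19.3% of all genes), and 3 had an unadjusted p under 0.05 (33% of all genes). Scd1 read 1470.5, 1419, 968, 795 and 578 CPM in young WT livers 1, 2, 3, 4 and 6. In old WT livers 1, 4, 5, 7 and 10 it read 1873, 2296, 2850, 4884 and 4561 CPM. Each old liver was above each young one, which held for 5.78% of all genes in that direction. The mean level was 3.15-fold higher in old WT, with a log2 fold change of 1.65 (SE 0.347, adjusted p = 0.00475), and the exact 2-sided permutation test gave p = 0.00794, the smallest that 5 against 5 can give. The call held with each library left out and under each other setting tried.

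Acacb, which encodes the carboxylase at the mitochondrial outer membrane whose malonyl-CoA restrains the entry of fatty acids into mitochondria, moved the other way. Its levels were 144, 131, 81.6, 105 and 94.2 CPM in young WT livers and 56.4, 54.3, 53.8, 55.6 and 106 CPM in old WT livers, in the same order. Old WT livers 1, 4, 5 and 7 lay close together, below all young ones, and old WT liver 10 lay among the young. The log2 fold change was -0.77 (SE 0.215, adjusted p = 0.0219) and the exact permutation p was 0.0317. Leaving out young WT 1 or 2 or old WT 1, 4 or 5 ended the call (highest adjusted p = 0.0640), and leaving out old WT 10 gave -1.01.

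Acaca, the cytosolic carboxylase and paralog of Acacb, was among the steadiest of the genes, with 88.9 to 110 CPM in young WT and 88.3 to 106 CPM in old WT (log2 fold change -0.10, SE 0.148, adjusted p = 0.681). Fasn, which encodes fatty acid synthase, had means of 165 ± 49.2 CPM in young WT and 173 ± 42.6 in old WT (SD, n = 5 each), with a log2 fold change of 0.07 (adjusted p = 0.904). Elovl6, the elongase of palmitate, had means of 52.1 and 50.3 CPM, and Me1 of 222 and 213 CPM, with log2 fold changes of -0.05 for each (adjusted p = 0.929 and 0.875). The groups overlapped for each of these 4 genes. Acly, ATP citrate lyase, had a log2 fold change of 0.37 (SE 0.209, adjusted p = 0.234).

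Srebf1 read 62.2, 52.3, 49.2, 78.4 and 40.7 CPM in young WT livers and 102, 125, 93.9, 64.6 and 34.8 CPM in old WT livers. Old WT livers 1, 4 and 5 were above all young ones, but old WT 10 was below them all, and the log2 fold change of 0.57 (SE 0.372) had an adjusted p of 0.301. Thrsp, which encodes the lipogenic protein Spot 14, had a log2 fold change of -0.39 (SE 0.438, adjusted p = 0.572). Pnpla3 was 0.542 to 0.905 CPM in young WT and 0.812 to 1.98 CPM in old WT, with old WT 1 alone inside the young range. Its log2 fold change of 1.10 (SE 0.519) had an unadjusted p of 0.0493 and an adjusted p of 0.150, while the exact permutation test on its own gave p = 0.0159. It passed the threshold in 2 other fits, without old S6K1 KO 1 (adjusted p = 0.0368) and on the 10 WT libraries alone (adjusted p = 0.0152).

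**Figure D2:**
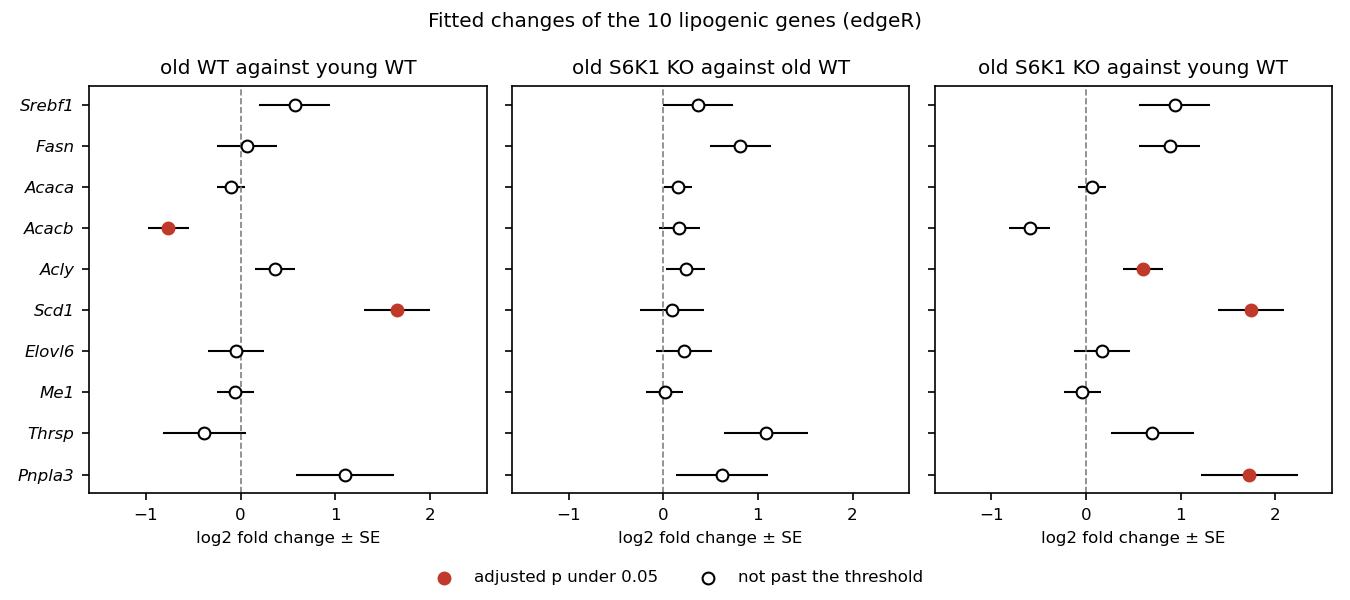
Fitted log2 fold change with its SE (horizontal axis) of each of the 10 genes in the 3 comparisons, filled where the edgeR adjusted p was under 0.05. Scd1 and Acacb are filled in the first panel, none in the second, and Scd1, Acly and Pnpla3 in the last.

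Between old S6K1 KO and old WT livers, 0 of the 10 genes passed the threshold in edgeR, against 0.533% of all genes tested, and the groups overlapped for each of them (no overlap in 3.19% of all genes). The count was also 0 in DESeq2 (1.94% of its genes) and in limma voom (0.161%), and with each library left out. At an unadjusted p under 0.05 there were 2 genes, Fasn and Thrsp, against 11.6% of all genes. All 10 fitted values were above 0, as were 50.2% of all genes, with a median log2 fold change of 0.23 against 0.0008 over all genes tested. That shared sign depended on single livers: without old S6K1 KO 1, 7 of the 10 were above 0, and Scd1 (-0.10), Elovl6 (-0.14) and Pnpla3 (-0.22) were below.

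Fasn read 553, 348, 224, 288 and 111 CPM in old S6K1 KO livers 1, 2, 4, 5 and 6, and 180, 208, 218, 120 and 139 CPM in old WT livers. Knockout livers 1, 2, 4 and 5 were above each old WT liver, and liver 6 was below them all. The log2 fold change was 0.81 (SE 0.322, unadjusted p = 0.0222, adjusted p = 0.317). Thrsp read 73.9, 59.1, 22.9, 55.3 and 9.28 CPM in old S6K1 KO and 10.6, 29.1, 19.7, 19.6 and 25.2 CPM in old WT. Knockout livers 1, 2 and 5 were above the old WT range and liver 6 was below it. Its log2 fold change was 1.09 (SE 0.441, unadjusted p = 0.0252, adjusted p = 0.332).

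Srebf1 itself read 183, 132, 89.9, 106 and 30.5 CPM in old S6K1 KO livers, a range that contained that of old WT, and its log2 fold change was 0.37 (SE 0.371, adjusted p = 0.773). Scd1 stood at 5207, 5330.0, 2119, 2522 and 2338 CPM, within or just above the old WT range, with a log2 fold change of 0.09 (SE 0.339, adjusted p = 0.958). The log2 fold changes of Acaca (0.16), Acacb (0.17), Acly (0.24), Elovl6 (0.22), Me1 (0.01) and Pnpla3 (0.62) had adjusted p values between 0.677 and 0.994. With SEs between 0.148 and 0.484 on the log2 scale for those 6 genes, small differences were not detectable at this spread.

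Between old S6K1 KO and young WT livers, 3 of the 10 genes rose, Scd1, Pnpla3 and Acly, and none fell, against 23.3% of all genes called in either direction, 12% called higher and 11.3% called lower. This comparison shares its libraries with the other 2. Scd1 was 3.35-fold higher in mean level with no overlap of the groups, as for 7.32% of all genes, and a log2 fold change of 1.74 (SE 0.348, adjusted p = 0.00264). It passed in each fit. Acly read 75.1, 80.2, 103, 125 and 87.0 CPM in young WT livers and 201, 138, 125, 168 and 83.8 CPM in old S6K1 KO livers. Livers 1, 2 and 5 of the knockout group were above the young range, liver 4 was just under its top, and liver 6 was inside it. Its log2 fold change of 0.60 (SE 0.209, adjusted p = 0.0470) was just past the threshold, kept in 5 of 15 fits that left out a library, with adjusted p values from 0.0106 to 0.130, and in 3 of 8 other settings. The exact permutation p was 0.0635.

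Pnpla3 read 0.737, 0.702, 0.652, 0.542 and 0.905 CPM in young WT and 6.40, 2.14, 0.599, 0.670 and 1.76 CPM in old S6K1 KO. Knockout livers 1, 2 and 6 were above the young range, and livers 4 and 5 were inside it. The log2 fold change was 1.73 (SE 0.514, adjusted p = 0.0242), and the exact permutation p was 0.119. Liver 1 alone set much of the size: without it the value was 0.88 and the call was lost, as it was without young WT 4 (highest adjusted p = 0.106).

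Srebf1 (log2 fold change 0.94, SE 0.374, adjusted p = 0.0794), Fasn (0.88, SE 0.323, adjusted p = 0.0578) and Acacb (-0.60, SE 0.215, adjusted p = 0.0548) stood near the threshold and did not pass it. Without old S6K1 KO 6 each of them passed, Srebf1 at an adjusted p of 0.0120 and Fasn at 0.00935. In that fit 6 of the 10 genes were called, whereas without old S6K1 KO 1 Scd1 alone was. Over all fits without 1 library, between 2460 and 3829 of all genes were called in this comparison. Elovl6 (0.17), Acaca (0.06), Me1 (-0.04) and Thrsp (0.70) had adjusted p values between 0.258 and 0.904. At an unadjusted p under 0.05 the count was 6 of 10, against 36.8% of all genes. DESeq2 called 5 of the 10 (22.3% of its genes) and limma voom 1 (22.9%).

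The old S6K1 KO livers differed among themselves more than the other groups did for several of the genes, which was not tested. The highest library exceeded the lowest 1.93-fold in young WT, 3.58-fold in old WT and 6.01-fold in old S6K1 KO for Srebf1. The same ratios were 2.29, 1.81 and 4.98 for Fasn, 1.70, 1.34 and 5.59 for Elovl6, and 3.12, 2.76 and 7.97 for Thrsp. For Scd1, Acacb and Me1 the ratio was highest in old WT, at 2.61, 1.98 and 2.33. In old S6K1 KO it was 2.52, 1.65 and 1.75 for them. The ratios were not compared with those of all genes. Liver 1 was the highest of the old S6K1 KO group for 7 of the 10 genes and liver 6 the lowest for 6, and their mean log2 CPM over the 10 genes was 7.32 and 5.85. Srebf1, Fasn, Acaca, Acly, Elovl6 and Thrsp were highest in liver 1 and lowest in liver 6, and the other genes were not: Scd1 and Acacb were highest in liver 2 and lowest in liver 4, Pnpla3 was lowest in liver 4, and Me1 was highest in liver 6 (292 CPM) and lowest in liver 5 (167 CPM). These livers also differed in 12 genes of the fasting response, whose summed level was 7909 CPM in liver 1, 17108 in liver 2, 13956 in liver 4, 13890 in liver 5 and 24245 in liver 6. Among the 5 knockout livers, liver 1 was thus the lowest and liver 6 the highest in this sum. Whether feeding state took part in the spread of the lipogenic genes was not tested.

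**Figure D3:**
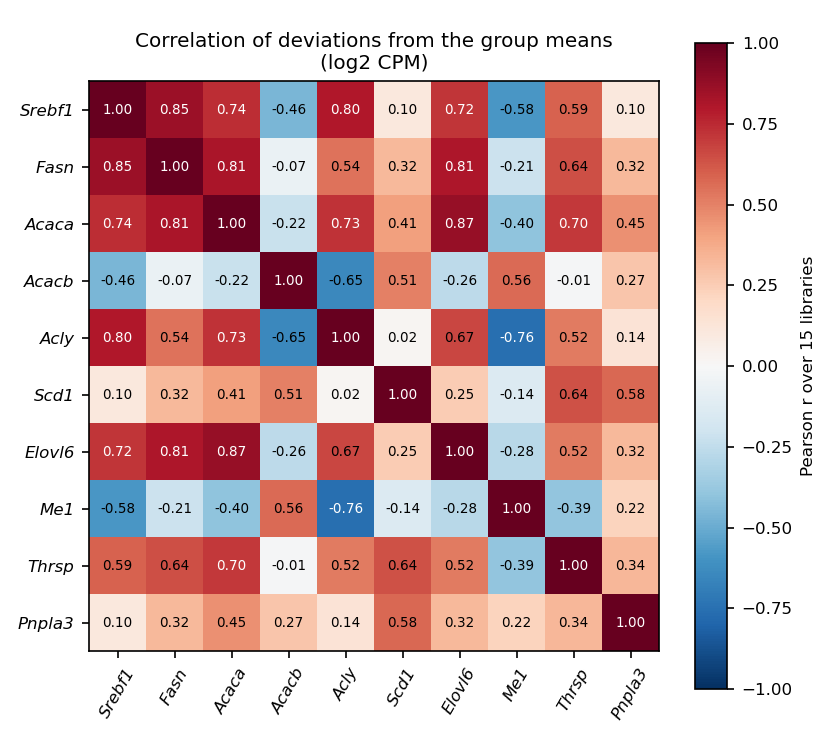
Pearson r between each pair of the 10 genes (rows and columns) over the 15 libraries, after subtraction of the group mean of log2 CPM. Srebf1, Fasn, Acaca, Acly, Elovl6 and Thrsp form a block of values between 0.52 and 0.87, whereas Me1 and Acacb have mostly negative values.

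Over deviations from the group means, pooled over the 3 groups, Srebf1, Fasn, Acaca, Acly, Elovl6 and Thrsp varied together. This did not hold for each pair within each group. In young WT livers 1, 2, 3, 4 and 6 Thrsp read 37.8, 26.0, 38.8, 20.6 and 12.4 CPM. Elovl6 went mostly the other way there, at 42.0, 53.6, 37.8, 64.0 and 63.0 CPM. The same genes were highest in liver 1 and lowest in liver 6 of the old S6K1 KO group. How far those livers set the values for pairs was not tested, and pairs of genes outside the set were not computed. Over the deviations of 15 libraries from their group means, 19 of the 45 pairs of genes had an r above 0.5 and 13 were below 0, with a median of 0.32 and a range from -0.76 to 0.87. The closest pair was Acaca and Elovl6 and the most opposed was Acly and Me1. Against the mean of the other 9 genes, r of the deviations was 0.86 for Acaca, 0.80 for Fasn, 0.71 for Thrsp, 0.70 for Elovl6, 0.56 for Srebf1, 0.54 for Scd1, 0.47 for Acly and Pnpla3, -0.03 for Acacb and -0.31 for Me1. Scd1, the gene with the clearest change with age, had an r of 0.10 with Srebf1. Without removal of the group means, Srebf1 had a Pearson r of 0.65 and a Spearman rho of 0.62 with the mean of the other 9 genes over the 15 libraries. Without old S6K1 KO 1 and 6, the libraries farthest from the median of Srebf1, r was 0.40. It was 0.49 without liver 1 alone and 0.61 without liver 6 alone. Over the deviations from group means, r was 0.56 and rho 0.40. Without old S6K1 KO 6 and old WT 10, the libraries farthest from the median there, r was 0.61 and rho 0.445. The points share libraries and scaling, and these values are descriptions.

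Of the 10 genes outside the set with the pattern most like the mean log2 CPM of the set over 15 libraries, among 12115 genes of at least 1 CPM on average, 9 are named here: Acss2 (r = 0.90), Lss (0.86), Rdh11 (0.85), Mr1 (0.84), Pstpip2 (0.84), Ppard (0.83), Kctd7 (0.83), Mid1ip1 (0.81) and Tmem55b (0.81). Acss2 makes acetyl-CoA from acetate, Lss is lanosterol synthase, an enzyme of sterol synthesis, and Mid1ip1 is the paralog of Thrsp. Acss2 read 187, 129, 106, 103 and 51.9 CPM in old S6K1 KO livers 1, 2, 4, 5 and 6. Its log2 fold change against young WT was 0.96 (SE 0.230, adjusted p = 0.00775).

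**Figure D4:**
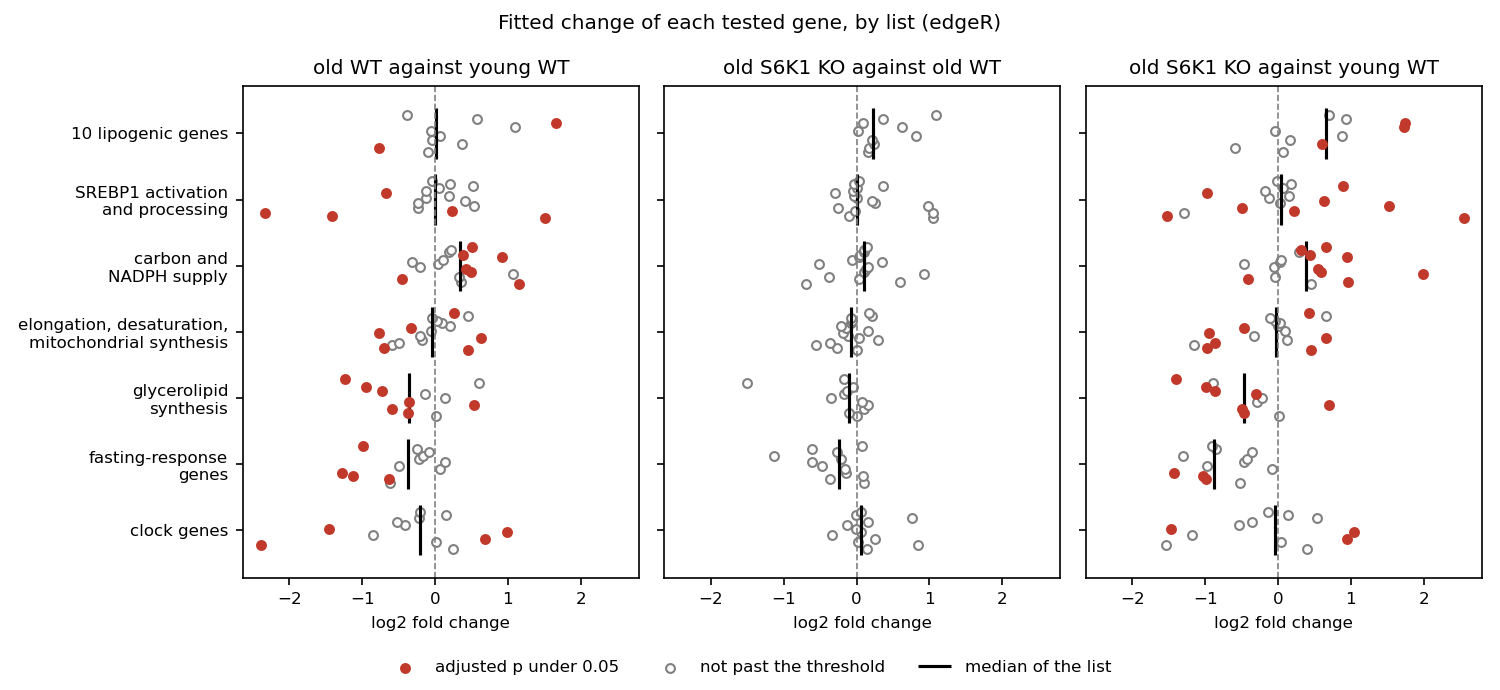
Fitted log2 fold change (horizontal axis) of each tested gene of the 10 lipogenic genes and of 6 related lists, filled where the edgeR adjusted p was under 0.05, with the median of each list as a vertical bar. Filled points appear in the left and right panels alone, on both sides of 0 in most of the lists.

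Of 16 genes of SREBP1 activation and processing, 2 rose, 3 fell and 11 did not pass in old against young WT, where 9.92% of all genes rose and 8.91% fell, with a median log2 fold change of 0.005 against 0.008 over all genes. Insig1, whose protein retains the SREBP precursor and whose gene is itself a target of SREBP, read 27.2, 34.7, 71.2, 63.8 and 60.9 CPM in young WT livers, 111, 247, 166, 137 and 69.5 CPM in old WT livers, and 607, 296, 264, 247 and 97.7 CPM in old S6K1 KO livers. Each knockout liver was above each young one, and old WT 10 alone overlapped the young group. The log2 fold change was 1.503 (SE 0.412, adjusted p = 0.0197) in old against young WT, 1.05 (SE 0.406, adjusted p = 0.307) in old S6K1 KO against old WT, and 2.55 (SE 0.427, adjusted p = 0.00089) in old S6K1 KO against young WT.

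Insig2, the other INSIG gene, went the opposite way with age. It read 1717, 1027, 1044, 832 and 681 CPM in young WT, 294, 422, 332, 333 and 600.1 CPM in old WT, and 224, 552, 309, 306 and 445 CPM in old S6K1 KO. Neither old group overlapped the young group, and the log2 fold change was -1.42 (SE 0.274, adjusted p = 0.00303) for old WT and -1.53 (SE 0.275, adjusted p = 0.00141) for old S6K1 KO against young WT. Lpin1, which encodes a phosphatidate phosphatase that is also a nuclear regulator of SREBP, fell in old against young WT (-2.33, SE 0.539, adjusted p = 0.0081), from a young group as wide as 36.0 to 336 CPM. Mbtps1, the protease of the first cleavage of SREBP in the Golgi, rose by a small amount (0.24, adjusted p = 0.0147), and the coactivator Ppargc1b fell (-0.68, adjusted p = 0.0457). The count of 5 was 3 without young WT 2 or old WT 4 and 8 without old WT 7.

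Against young WT, 5 of the 16 genes rose in old S6K1 KO livers and 3 fell (12% and 11.3% of all genes, median 0.04). Beside the INSIG genes these were led by Mid1ip1 (1.52, SE 0.328, adjusted p = 0.00418) and Srebf2 (0.89, SE 0.192, adjusted p = 0.00419). Mbtps2, the second protease of SREBP cleavage, came next (-0.49, adjusted p = 0.00544). The list holds Mid1ip1 as the paralog of Thrsp, and Insig1 is itself a target of SREBP, so its counts are not of upstream genes alone. Srebf2 encodes the SREBP of sterol synthesis, and its means were 39.7 CPM in young WT, 57.0 in old WT and 73.5 in old S6K1 KO. The LXR genes Nr1h2 and Nr1h3, their partner Rxra and the SREBP escort Scap did not pass in any comparison, and Scap had means of 81.8, 84.9 and 85.5 CPM in the 3 groups. Old S6K1 KO against old WT gave 0 calls in edgeR in this list and in the other 5 lists of related genes, with 3 of 16 genes (activation), 3 of 16 (carbon and NADPH), 0 of 16 (elongation and desaturation), 1 of 11 (glycerolipid), 1 of 12 (fasting) and 1 of 12 (clock) at an unadjusted p under 0.05, against 11.6% of all genes. DESeq2 called 1 clock gene and limma voom none.

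**Figure D5:**
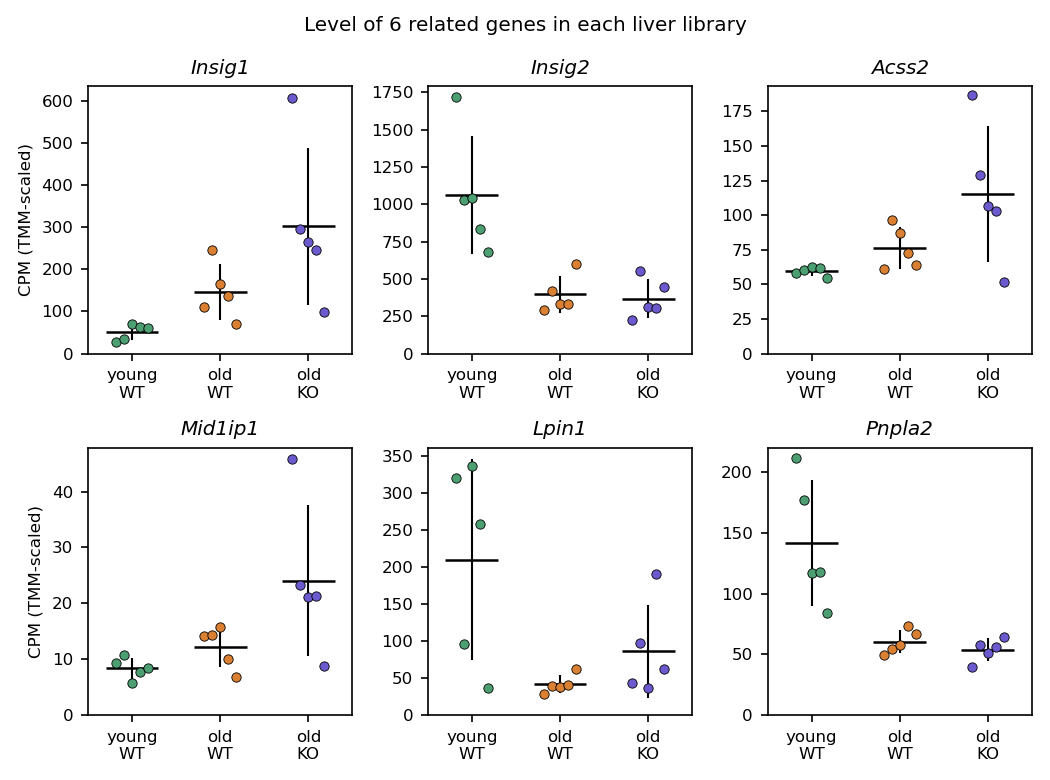
Level in CPM (vertical axis, linear from 0) of 6 related genes in the 5 libraries of each group (points), with group mean (horizontal line) and SD (vertical line). Insig1 and Insig2 run in opposite directions from young to old, and all old livers are below the young ones for Pnpla2.

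Of 16 genes that supply carbon and NADPH for fatty acid synthesis, 6 rose, 1 fell and 9 did not pass in old against young WT (median 0.34), where 9.92% of all genes rose and 8.91% fell. Those that rose were led by Pklr, liver pyruvate kinase (0.92, SE 0.206, adjusted p = 0.00693), Tkt, transketolase (0.51, adjusted p = 0.00749), Idh1, a cytosolic source of NADPH (0.49, adjusted p = 0.0135), and Slc25a1, the mitochondrial citrate carrier (0.39, adjusted p = 0.0158). Old S6K1 KO livers had 8 higher and 1 lower than young WT (12% and 11.3% of all genes, median 0.38). Among these, Tkt was at 0.65 (SE 0.116, adjusted p = 0.00131), Idh1 at 0.59 (adjusted p = 0.00374), Pklr at 0.95 (adjusted p = 0.00436) and Khk, ketohexokinase, at 0.55 (adjusted p = 0.00637). Me2 and Me3, the mitochondrial paralogs of Me1, did not pass in any comparison.

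Of 18 genes of elongation, desaturation and mitochondrial synthesis, 16 were tested, and 3 rose and 3 fell in old against young WT (median -0.05), against 9.92% and 8.91% of all genes. Fads1, the delta-5 desaturase (0.63, SE 0.149, adjusted p = 0.00774), and Elovl1 (0.45, adjusted p = 0.00774) rose, and Fads3 (-0.77, adjusted p = 0.00919), Elovl2, an elongase of polyunsaturated fatty acids (-0.70, adjusted p = 0.0103), and Hacd3 (-0.33, adjusted p = 0.0382) fell. Against young WT, 3 rose and 4 fell in old S6K1 KO (12% and 11.3% of all genes, median -0.02), Elovl5, the elongase paralog, among the latter (-0.87, SE 0.192, adjusted p = 0.00487). Scd2, the desaturase paralog of Scd1, had means of 5.34, 7.28 and 8.40 CPM in young WT, old WT and old S6K1 KO and did not pass in any comparison. Scd3 and Scd4 did not reach the filter on low counts.

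Of 12 genes of glycerolipid synthesis and breakdown, 11 were tested, and 1 rose and 6 fell in old against young WT (median -0.35), against 9.92% and 8.91% of all genes. Dgat2, which makes triglyceride from newly made fatty acids, rose (0.54, SE 0.102, adjusted p = 0.00269), from 204 to 262 CPM in young WT to 258 to 365 CPM in old WT. Pnpla2, the triglyceride lipase ATGL and a paralog of Pnpla3, fell: it read 212, 177, 117, 118 and 83.7 CPM in young WT livers and between 49.6 and 73.4 CPM in old WT, with no overlap (-1.23, SE 0.207, adjusted p = 0.0014). Dgat1, the other triglyceride synthase, fell (-0.59, adjusted p = 0.0052), as did the lipins Lpin2 and Lpin3 (-0.73 and -0.94, adjusted p = 0.0188 and 0.00501). The count of 7 was 4 without old WT 1. The knockout livers against young WT had 1 rise and 6 falls (12% and 11.3% of all genes, median -0.47), with Dgat2 at 0.71 (adjusted p = 0.00034) and Pnpla2 at -1.40 (adjusted p = 0.00041). Pnpla5 did not reach the filter.

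Of 12 genes of the fasting response, 4 fell, none rose and 8 did not pass in old against young WT (median -0.37), where 18.8% of all genes were called. Those that fell were Cpt1a, the gate of mitochondrial fatty acid import (-0.63, SE 0.144, adjusted p = 0.00749), Cyp4a10 (-1.13, adjusted p = 0.0119), Cyp4a14 (-1.27, adjusted p = 0.0244) and Ppargc1a (-0.98, adjusted p = 0.0443). The summed level of the list ranged from 25455 to 30060.5 CPM in the young livers, from 14803 to 23479 in the old WT livers and from 7909 to 24245 in the knockout livers, so the sum was below the young range in each old liver. Cyp4a14 and Cyp4a10, fatty acid hydroxylases, carried most of that difference, with means of 11268 and 4441 CPM in young WT and 4661 and 2029 CPM in old WT. Of 12 clock genes 4 were called: Npas2 (0.99, adjusted p = 0.00499) and Cry1 (0.69, adjusted p = 0.0373) rose and Ciart (-2.39, adjusted p = 0.0155) and Nr1d1 (-1.46, adjusted p = 0.0368) fell. Against young WT, 3 fasting genes fell in old S6K1 KO (median -0.88) and 2 clock genes rose and 1 fell, 3 of 12 in each list, where 23.3% of all genes were called. The count of fasting genes in old against young WT was 2 without old WT 1, 4 or 5, and that of clock genes was 2 without young WT 2 or 4 or old WT 4, 7 or 10. In old S6K1 KO against young WT, the fasting count was 6 without old S6K1 KO 6 and the clock count 5 without old S6K1 KO 4. The part of these differences in the rise of Scd1 or the fall of Acacb was not tested.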

How the data were processed

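RNA from flash-frozen liver was extracted with TRIzol. Per the study's methods, stranded poly(A) libraries were sequenced single-end, aligned with TopHat (TopHat2 2.0.11 in the submitters' processing notes) to mm9, and counted with HTSeq. The annotation and the strand setting of the counting are not given in the sources used here. The authors deposited unnormalized counts of reads for each gene. Exons of Srebf1, Acaca and Me1 overlap genes on the opposite strand by 109, 16 and 30 bases.

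The members and gene lists were chosen with earlier results of these data known. Genes passing edgeR's filterByExpr (14258) were scaled by TMM and tested with quasi-likelihood tests (edgeR 4.0.16, R 4.3.3), 1 fit of 3 groups of 5 libraries, with Benjamini-Hochberg adjustment over all genes and a threshold of 0.05. The common biological coefficient of variation was 0.189. Library totals are printed with the results. Exact 2-sided permutation tests compared mean log2(CPM + 0.1) of single genes over 252 assignments. Per-kilobase levels used exon lengths of GENCODE M1 (mm9). Promoter windows were RefSeq's (GRCm38.p6). Alternatives were limma voom 3.58.1, DESeq2 1.42.0, RLE and upper-quartile scaling, no filter and a stricter filter (10 counts in every library), 2-group fits, a replicate block and leaving out each library. The script was tested on simulated data. No pair of libraries in a group agreed within sampling noise. Numbered replicates were taken as separate animals, as the study describes.

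Genes were named by rule: the 10 members, paralogs, up to 5 called genes of each list by smallest p, and the 10 genes most like the member mean. Scap, Nr1h2, Nr1h3 and Rxra, and the genes outside the 10 with values per library, were chosen after values were seen. Results for a few genes that these rules would name are not reported here.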

Additional observations from a re-analysis of the deposited data

Results flagged for a closer look

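A pair of single livers stood apart from the other 4 of their group by Dixon's test at the 95% level, out of 30 groups of 5 tested (10 genes in 3 groups), where chance gives about 1 in 20. Acacb was 106.453 CPM in old WT 10 and 53.8 to 56.4 CPM in the other old WT livers. Its gap was 0.950 of the group's range, against a critical value of 0.71. Pnpla3 was 6.39829 CPM in old S6K1 KO 1 and 0.599 to 2.14 CPM in the other old S6K1 KO livers, with a gap of 0.734 of the range.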

How the results depend on the processing

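Scd1 kept its call in old WT and in old S6K1 KO against young WT under all 8 other settings and all 15 fits without 1 library. Of 240 member values under the other settings, 220 kept direction and side of the threshold, 6 turned sign, none of them a called value, and 14 crossed the threshold, 7 in each direction. In old S6K1 KO against young WT, Acly lost its call in 5 of 8 settings and Pnpla3 under voom and the replicate block, while Acacb gained a call in 5 of 8.

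Libraries of the same replicate number had correlations of deviations between -0.153 and 0.077. Libraries of different numbers were not set beside them, so whether the numbers pair the animals was not settled. With the replicate block, 899 of all genes passed in old against young WT, against 2685 without it. In old S6K1 KO against old WT 6 passed, against 76 without it. Under that block, the lists in old against young WT gave 0 (SREBP1 activation), 4 (carbon and NADPH), 1 (elongation and desaturation), 3 (glycerolipid), 0 (fasting) and 2 (clock) genes. The block also turned the log2 fold change of Fasn to -0.10 and of Me1 to 0.037 in old against young WT, of Me1 to -0.086 in old S6K1 KO against old WT, and of Acaca to -0.038 and Elovl6 to -0.16 in old S6K1 KO against young WT. Upper-quartile scaling turned Me1 to -0.00138 in old S6K1 KO against old WT. The cause was not tested.

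For old S6K1 KO against old WT, limma voom called 23 genes and DESeq2 292, 1 of them a clock gene, against 76. For old S6K1 KO against young WT, voom called 1 of the 10 genes and DESeq2 5. The r of Srebf1 with the mean of the other 9 genes was 0.56 over deviations from group means and 0.40 without the 2 farthest libraries.

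Without 1 library at a time, old against young WT gave 1748 to 3284 genes, 1 to 3 members, and 3 to 8, 5 to 8, 4 to 6, 4 to 7, 2 to 4 and 2 to 4 genes of the lists in the order above. Old S6K1 KO against old WT gave 9 to 108 genes and 0 members. Old S6K1 KO against young WT gave 2460 to 3829 genes, 1 to 6 members, and 7 to 9, 9, 7 to 8, 6 to 8, 3 to 6 and 2 to 5 genes of the lists. Members with an exact permutation p under 0.05 numbered 2 to 5, 0 to 2 and 1 to 5 in the 3 comparisons. That test was not run over all genes, so these counts have no share to be read against. The r of Srebf1 with the mean of the other 9 genes was 0.49 to 0.77. Log2 fold changes that turned sign ranged from -0.058 to 0.21 (Fasn, old against young WT), -0.13 to 0.035 (Elovl6) and -0.24 to 0.081 (Me1). In old S6K1 KO against old WT they ranged from -0.12 to 0.27 (Scd1), -0.14 to 0.44 (Elovl6), -0.12 to 0.20 (Me1) and -0.22 to 0.86 (Pnpla3). In old S6K1 KO against young WT they ranged from -0.084 to 0.19 (Acaca), -0.19 to 0.39 (Elovl6) and -0.17 to 0.087 (Me1). Depth limits Pnpla3, with 14 counts in its lowest library.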
